A study of Danio rerio with 8 samples.

Results

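Distant alternative 3′ splice sites are pairs of acceptor sites, joined to the same upstream exon, that lie more than 12 nt apart. They were taken from the deposited table of alternative 3′ splice sites by 2 criteria, a long exon exceeding the short exon by more than 12 nt and a mean of at least 10 junction reads (inclusion plus skipping) over its 8 values. Of the 1271 events in that table, 529 met both, and they lay in 492 genes. Another 40 events passed the distance criterion but had fewer reads. Neither the level of use of a site nor its difference between groups entered the choice. The RNA was polyadenylated RNA from whole zebrafish larvae of the TLEK strain at 5 days post fertilization. One group of 4 libraries came from wild-type larvae and the other group of 4 from larvae homozygous for a nonsense mutation in upf1, and strain and age were shared. The labels do not give the number of larvae or clutches per library, and each p-value here reflects only the variation among the libraries, which may be technical.

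The splicing table does not name a genotype. Its headers call the groups sample 1 and sample 2, here the first and the second group, with 4 values in each. Of 50 genes with junction reads that were called at least 4-fold higher in mutants in the labelled gene counts, 50 had more junction reads, relative to library depth, in the first group at their deepest event. Of 10 genes called at least 4-fold lower in mutants, 10 had fewer. These counts describe the table, and differences in splicing are given below as first against second group. Summed over the events of the 5 splicing classes, junction counts came to 24125286 to 36014479 per library. Of these, 414658 to 552015 fell on the distant 3′ splice sites. A read that serves several events is counted in each. The labelled gene counts held 75335048 to 96104507 reads per library.

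A 3′ splice site is defined by a branch point, a polypyrimidine tract and a terminal AG, read by the branch point-binding protein SF1, the U2AF heterodimer and then the U2 particle. Choice of the upstream of 2 competing AGs adds the stretch between them to the exon. Where that stretch is not a multiple of 3 and is coding, the reading frame changes and a premature stop codon often follows. UPF1 is the RNA helicase at the centre of nonsense-mediated decay, which degrades such transcripts.

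Most distant pairs were used unevenly. The distance between the sites ranged from 13 to 2862 nt with a median of 34 nt, and the intron before the upstream site had a median length of 838 nt. The inclusion level is the length-corrected share of junction reads assigned to the long exon, and is read below as use of the upstream site. These reads cross the upstream site or a boundary inside the long exon. Reads over the inner boundary can also come from other upstream exons or a retained intron. Averaged over the 8 values the inclusion level was above 90% or below 10% in 363 events. The upstream site was the rarer in 260 events and the downstream site in 269. A distance that is a multiple of 3, called frame-preserving here, was found in 357 events (67.5%) and a frame-breaking distance in 172. Among the 626 tandem events of 12 nt or less with the same depth, 572 (91.4%) were frame-preserving. Whether a stretch is coding is not given by the table, nor whether a frame-preserving stretch holds a stop codon in frame. The median depth was 116 junction reads, and the median SD within a group was 1.95 percentage points.

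The inclusion level differed between the groups in 32 events, 19 with more and 13 with less inclusion in the first group. This is 32 of 529 (6.05%), against 3.29% of all 1155 events tested, in edgeR's quasi-likelihood test of the ratio of inclusion to skipping reads at a Benjamini-Hochberg adjusted p under 0.05. In the 2 directions the share over all 1155 was 1.9% for more and 1.39% for less use. The tandem events gave 6 of 626 (0.958%), and no test between the classes was made. In the authors' deposited table, 47 distant events were higher and 40 lower in the first group at a false discovery rate under 0.05, which is 16.4%, against 11.1% of the 1155 (5.71% higher and 5.37% lower). The 2 tests shared 30 events, all with the same sign in both. edgeR alone called 2 (in rps28 and ube2ia), the authors' deposited table alone called 57, and neither called 440. The called events ranged from 0.5 to 60.1 percentage points in size, and 18 of them differed by more than 10 points. Another 30 events differed by more than 10 points without passing edgeR's test. Inclusion levels did not overlap between the groups in 56 events, 29 higher and 27 lower, and the share over all tested events was 7.36%. The median difference over the distant events was -0.125 points, close to the -0.1 points over all tested events. Called events had a median of 414 junction reads, and the 132 deepest events held 19 of the 32 calls.

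**Figure D1:**
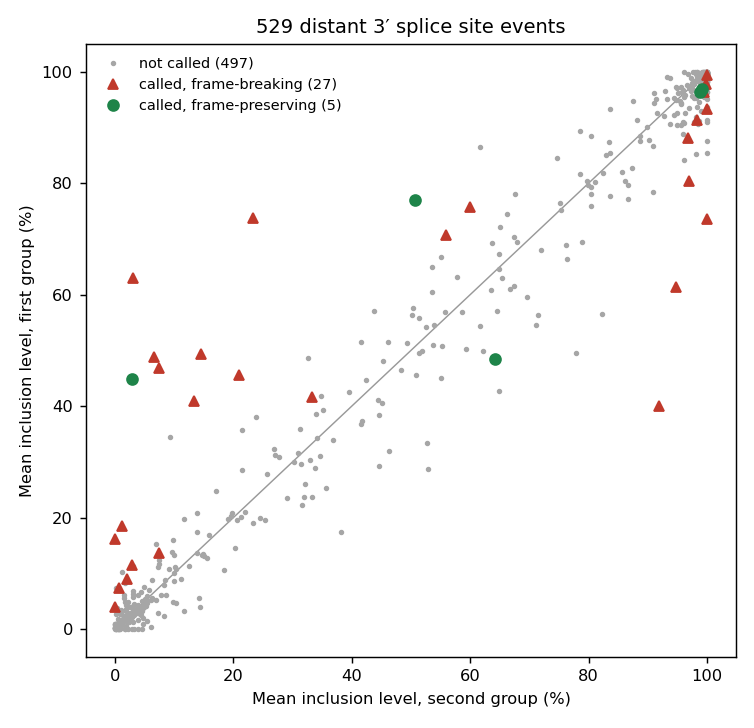
Mean inclusion level (%) of the 529 distant 3′ splice site events, the second group on the x axis and the first on the y axis, each point the mean of 4 values per group; the line marks equal levels. Red triangles are the 27 called frame-breaking events, green circles the 5 called frame-preserving events and grey points the events not called by edgeR; called events with a second-group mean under 50% lie above the line, and those at higher means lie below it except in ccnl1a, rbm39a and 1 event of nt5c2b.

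Frame-breaking pairs made up most of the calls. Of 172 frame-breaking events 27 were called (15.7%), 17 higher and 10 lower, whereas of 357 frame-preserving events 5 were called (1.4%), 2 higher and 3 lower. In the authors' deposited table the counts were 48 of 172 (27.9%) and 39 of 357 (10.9%). The tandem events had the same order in edgeR, with 6 of 54 frame-breaking (11.1%) and 0 of 572 frame-preserving events called. For the latter edgeR gave 14 higher and 13 lower at an unadjusted p under 0.05, limma gave 0 higher and 1 lower call, and the authors' deposited table gave 27. By distance, 11 of 238 events at 13 to 30 nt were called (4.62%), 10 of 194 at 31 to 100 nt (5.15%), 6 of 68 above 100 and up to 300 nt (8.82%) and 5 of 29 above 300 nt (17.2%). The mix of frames also changed with distance, as frame-breaking events were 63, 60, 33 and 16 of these classes in turn. Among them 17.5, 13.3, 15.2 and 18.8% were called. Among the frame-preserving events the shares were 0, 1.49, 2.86 and 15.4%, the last from 2 calls in 13 events. All 11 calls in the shortest class were frame-breaking. The 175 frame-preserving events there gave no edgeR call, with 5 higher and 4 lower at an unadjusted p under 0.05, 1 lower call by limma, and 7 higher and 7 lower calls in the authors' deposited table. These counts are descriptions, and the difference between classes was not tested.

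The direction followed which site was the rarer. Events with a mean inclusion level under 10% had 6 higher and 0 lower calls among 177, and those at 10 to 50% had 10 higher and 0 lower among 83. Events at 50 to 90% had 3 higher and 5 lower calls among 83, and those over 90% had 0 higher and 8 lower among 186. For the directions without an edgeR call, limma gave 1 lower call under 10%, 0 lower at 10 to 50% and 0 higher over 90%. At an unadjusted p under 0.05 edgeR gave 6, 3 and 1, and the authors' deposited table gave 6, 4 and 2. In 29 of the 32 called events the site that was rarer over all 8 values had the larger share in the first group. The same held for 64 of the 87 calls in the authors' deposited table, and for 312 of the 529 distant events whether called or not. An event near 0 or 100% has room to move mainly one way, and the class uses the mean of the values compared. A large change also moves this mean toward the middle classes, as in rpl22l1 (means 63.07 and 2.95%). The direction and the share called in each class are therefore descriptions.

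**Figure D2:**
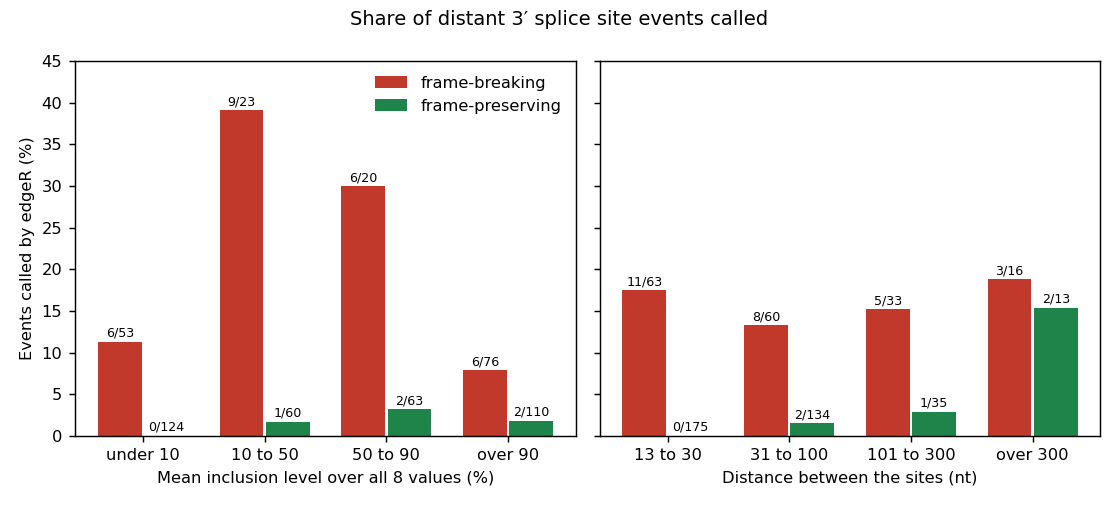
Share of distant 3′ splice site events called by edgeR (%), by mean inclusion level over the 8 values (left) and by distance between the sites in nt (right), with frame-breaking events in red and frame-preserving in green. Numbers over the bars are events called over events in the class, and the frame-breaking bar reaches 9 of 23 at 10 to 50%. A large change itself moves an event's mean toward the middle classes.

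Genes for ribosomal proteins and translation factors held some of the deepest called events. In rpl22l1, which encodes a paralogue of the ribosomal protein Rpl22, the sites lay 68 nt apart (GRCz10 chromosome 24, minus strand, first exon bases at 26332551 and 26332483). The upstream site took 64.4, 61.2, 63.2 and 63.5% in the first group and 3.7, 2, 2.8 and 3.3% in the second. All 4 first-group values lay far above the second group, and the log2 ratio of inclusion to skipping reads differed by 5.84 ± 0.18 (SE; edgeR adjusted p = 6.46e-11). In rpl3, a core protein of the large ribosomal subunit, the frame-preserving sites were 231 nt apart (chromosome 3, minus strand, 29738588 and 29738357). Their inclusion levels were 44.4, 44.9, 45.7 and 44.3% against 2.9, 2.7, 2.7 and 3%. The groups were separated with little spread within each, at 4.79 ± 0.10 (edgeR adjusted p = 7.66e-13), and rpl3 had more junction reads than any other distant event, a mean of 38972. In eif4a1a, the RNA helicase of the cap-binding complex, the upstream of 2 sites 429 nt apart (chromosome 7, minus strand, 26245013 and 26244584) took 96.8, 96.3, 96.2 and 98.3% against 99.2, 98.9, 99.3 and 99.6%. The groups did not overlap, and the change was -2.04 ± 0.34 (edgeR adjusted p = 0.00279). Among 11 events in ribosomal protein genes edgeR called 3 (rpl22l1, rpl3 and rps28), and the authors' deposited table called 2. The 4 events in translation factor genes held 1 edgeR call, in eif4a1a. The authors' deposited table called 2, in eif4a1a and eif3eb, and limma gave 2 lower calls. Inclusion in eif3eb was 85.17% in the first and 98.12% in the second group (edgeR adjusted p = 0.0707). The FDR for eif3eb in the authors' deposited table was 8.74e-10. In rps28, chosen after its values were seen, a downstream site 1109 nt away was used more in the first group, inclusion being 99.45 ± 0.1% in the first and 99.95 ± 0.0577% in the second group (SD, n = 4; edgeR adjusted p = 0.00142), while the authors' deposited table gave an FDR of 1.

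Calls were also made in sf1, rbm39a, ccnl1a, rsrc2 and adarb1a. In sf1, the branch point-binding protein itself, the frame-preserving sites were 78 nt apart (chromosome 7, plus strand, 22548382 and 22548460). The upstream site took 47.7, 47.1, 48.8 and 50.3% in the first group and 64.7, 61.3, 64.6 and 66.1% in the second. All first-group values were lower, with a change of -0.93 ± 0.17 (edgeR adjusted p = 0.00421). In rbm39a, a U2AF-related splicing factor, the sites were 1414 nt apart (chromosome 11, plus strand, 24102772 and 24104186), and inclusion was 73.5, 77.4, 75.3 and 76.7% against 58.2, 58.2, 61.7 and 62%. In ccnl1a, a cyclin L of the splicing-associated kinases, the sites were 1629 nt apart (chromosome 18, plus strand, 41524572 and 41526201), with 73, 79.1, 79.9 and 75.8% against 50.9, 53.7, 54.5 and 43.7%. Both were higher in every first-group value, by 1.05 ± 0.16 (edgeR adjusted p = 0.00155) and 1.71 ± 0.21 (adjusted p = 0.000269). In rsrc2, an arginine- and serine-rich protein, sites 22 nt apart (chromosome 5, minus strand, 66605023 and 66605001) had inclusion levels of 50.5, 49.8, 41.6 and 40.4% against 18.2, 17.7, 25.8 and 22%. In adarb1a, an adenosine deaminase that edits RNA, sites 47 nt apart (chromosome 22, minus strand, 12630596 and 12630549) had 43.4, 37.3, 48.7 and 57.6% against 11.7, 4.6, 3.3 and 10.2%. Neither pair of groups overlapped, and the changes were 1.67 ± 0.31 (edgeR adjusted p = 0.00594) and 3.44 ± 0.55 (adjusted p = 0.00212). A list of 3′ splice site factors and other splicing regulators held 4 events. Of these edgeR called those in sf1 and rbm39a and did not call those in tial1 and puf60a. The authors' deposited table called 3, with tial1 among them (FDR 2.29e-07). Inclusion in tial1 was 84.45% in the first and 74.7% in the second group (edgeR adjusted p = 0.0707). A list of SR, hnRNP and other RNA-binding protein genes held 9 events, among them those in mbnl1, mbnl2, qkia, ewsr1a and tardbpl. These 9 gave 0 edgeR calls, with 0 higher and 2 lower (hnrnpc and srsf5a) at an unadjusted p under 0.05. They had 0 limma calls and 1 call in the authors' deposited table.

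Further calls with more use of the upstream site were in genes for enzymes and kinases. In prkag3b, a regulatory gamma subunit of the energy-sensing kinase AMPK, sites 28 nt apart (chromosome 9, minus strand, 14133095 and 14133067) had inclusion levels of 74, 78.2, 73.1 and 69.6% against 14, 21.6, 35.6 and 21.7%. In qdprb1, a dihydropteridine reductase that regenerates tetrahydrobiopterin, sites 13 nt apart (chromosome 1, minus strand, 22159106 and 22159093) had 49.8, 50.8, 54.5 and 40.4% against 5.6, 5.8, 8.9 and 6.2%. First-group values were all higher in both genes, by 3.26 ± 0.43 (edgeR adjusted p = 0.000433) and 3.74 ± 0.37 (adjusted p = 2.34e-05). In ces2, a carboxylesterase, sites 23 nt apart (chromosome 18, minus strand, 17423995 and 17423972) had 23, 18.9, 17.9 and 13.9% against 1.9, 1.7, 0.6 and 0.8%. In lace1a, a mitochondrial AAA-type ATPase, sites 20 nt apart (chromosome 17, plus strand, 6618789 and 6618809) had 41.6, 44.3, 31.5 and 46.2% against 12.1, 13.3, 9.2 and 18.7%. Again no values overlapped, and the means were 18.4 ± 3.74% against 1.25 ± 0.646% in ces2 (SD, n = 4; edgeR adjusted p = 3.06e-06) and 40.9 ± 6.54% against 13.3 ± 3.98% in lace1a (edgeR adjusted p = 0.0114). In sik2a, a salt-inducible kinase, sites 41 nt apart (chromosome 5, minus strand, 57188325 and 57188284) had 60.4, 45, 58 and 34.2% against 12.9, 17.1, 14.3 and 14%. The first group was higher in all 4 values but more spread, and the change was 2.51 ± 0.57 (edgeR adjusted p = 0.0251). Leaving out any of the first 3 values of either group, it no longer passed (adjusted p 0.0595 to 0.104 over these 6 settings).

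Apart from sf1, the calls with less use of the upstream site concerned a downstream site that was rarely used in the second group. In fam133b, which encodes a lysine-rich protein, sites 50 nt apart (chromosome 19, plus strand, 40755909 and 40755959) had inclusion levels of 41.7, 37.9, 42.2 and 38.3% against 92.4, 95.5, 86 and 93.5%. Its skipping reads, from the downstream site, were 229, 286, 257 and 299 against 13, 8, 27 and 9. Inclusion was lower in every first-group value, by -4.09 ± 0.34 on the log2 ratio scale (edgeR adjusted p = 4.18e-06). In pon2, a paraoxonase, sites 212 nt apart (chromosome 16, minus strand, 24757126 and 24756914) had 82.8, 68.3, 69.5 and 73.9% against 100% in all 4. The downstream site had 11, 16, 25 and 18 reads in the first group and 0 in each second-group library (edgeR adjusted p = 0.000367). In dennd2da, a DENN-domain protein, sites 26 nt apart (chromosome 8, minus strand, 12966379 and 12966353) had 86, 84, 74.5 and 76.8% against 95.5, 96.9, 97.7 and 97.5%. First-group values were all lower in these genes, and in dennd2da by -2.88 ± 0.48 (edgeR adjusted p = 0.00279). In psmd8, a proteasome regulatory subunit, sites 70 nt apart (chromosome 18, minus strand, 44625640 and 44625570) had 95.7, 96.9, 94.8 and 97.9% against 99.6, 99.4, 99.7 and 99.5%. In sepp1b, a selenoprotein P of plasma selenium transport, sites 73 nt apart (chromosome 2, plus strand, 27742871 and 27742944) had 92.7, 91.7, 89.9 and 91.4% against 96.5, 98.6, 98.4 and 100%. These small shifts did not overlap between groups, at -2.98 ± 0.43 (edgeR adjusted p = 0.000932) and -2.48 ± 0.44 (adjusted p = 0.00421), the latter with an adjusted p of 0.11 in limma. The event in si:ch211-248a14.8 (chromosome 17, plus strand, 20155491 and 20155564, 73 nt) had 91.9, 82.5, 86.6 and 91.3% against 95, 96.3, 97.6 and 98.1%. It passed at an edgeR adjusted p of 0.0433, and not on leaving out value 2 or 3 of the first group or any 1 value of the second (0.0554 to 0.14).

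**Figure D3:**
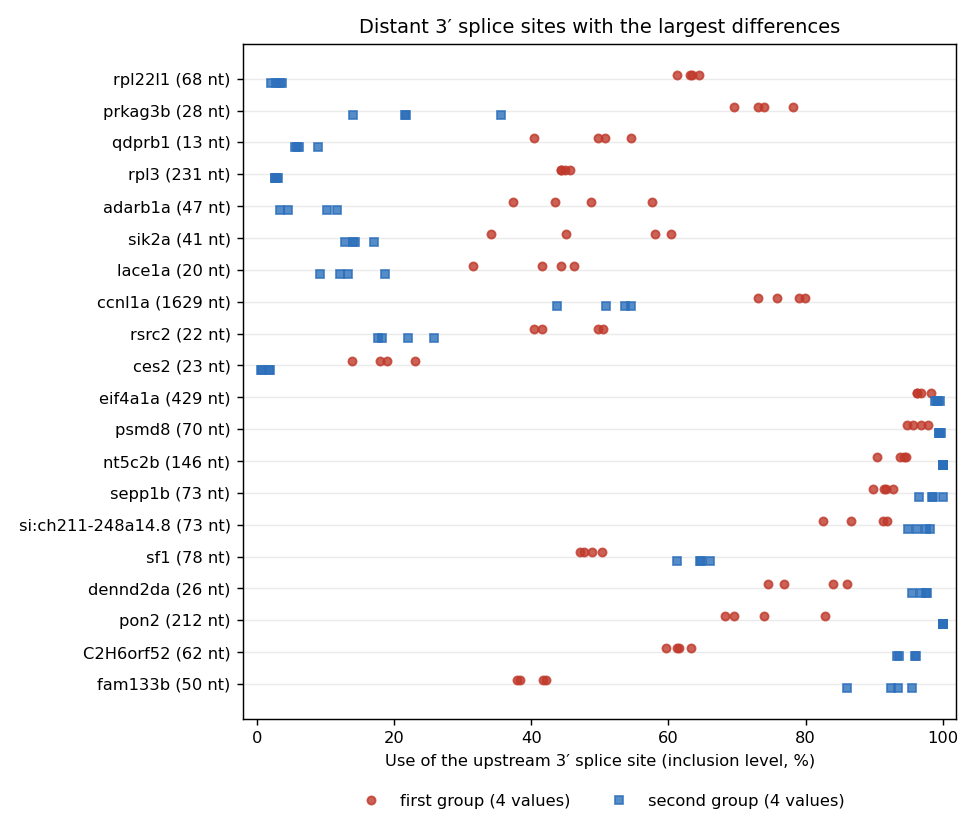
Inclusion level (%), read as use of the upstream 3′ splice site, of the 20 distant events with the largest differences called by both tests, 10 in each direction. Red circles are the 4 first-group values and blue squares the 4 second-group values. In C2H6orf52 the part of retained introns in the inclusion level was not tested. No row has overlapping groups; rpl22l1 lies between 61.2 and 64.4% in the first group and between 2 and 3.7% in the second.

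In each of the 20 events plotted with both groups and in rbm39a, the exact two-sided permutation test over the 8 inclusion levels gave p = 0.0286, the smallest that 4 against 4 values allow. Any event without overlap between the groups gets this p. The plotted events were chosen for no overlap, so for them it was fixed in advance and adds no support. The other 11 called events, chosen here after their values were seen, included sites with no reads in the second group. In hacl1, a peroxisomal 2-hydroxyacyl-CoA lyase, the upstream site 26 nt away took 9.6, 13, 24.3 and 17.6% in the first group and 0% in each second-group library (edgeR adjusted p = 0.0032). In ubxn8, sites 16 nt apart gave 3.5, 4.8, 3.9 and 3.5% against 0% in each (adjusted p = 0.0216). Both upstream sites had reads only in the first group. The F-box gene fbxw11b (400 nt) had means of 7.3 ± 1.54% and 0.6 ± 0.535%, and the intraflagellar transport gene ift46 (13 nt) had 8.9 ± 1.8% and 2.08 ± 0.995% (SD, n = 4 in each). The SUMO-conjugating enzyme gene ube2ia (185 nt) had 97.85 ± 0.87% and 99.92 ± 0.15%. It passed edgeR's test (adjusted p = 0.00421) but not the authors' deposited table (FDR 0.062). The event in the cold-inducible RNA-binding protein gene cirbpb (260 nt) had 45.9, 39, 42.2 and 39.3% against 34.6, 32.8, 33.1 and 32.8% (edgeR adjusted p = 0.0334), with the groups apart by 8.28 points. With limma (pseudocount 0.5) the cirbpb event was not called higher.

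Read levels of each form were compared between the groups next, in junction reads scaled to the library's total of junction reads (RPM), averaged per group. RPM was not corrected for effective length, and the upstream form counts reads over 2 boundaries. The values therefore compare 1 form between groups, not the 2 forms of an event with each other. The form that gained share was higher in the first group in 31 of the 32 called events and more than 2-fold higher in 29. Its median log2 change was 3.12, from -0.48 to 5.41. The form that lost share had a median of 0.15, from -0.98 to 1.41, was within 2-fold in 30 events and was lower in 12. For rpl22l1 the upstream form was at 346.6 and 8.15 RPM in the first and second group and the downstream form at 107.1 and 142.7. For rpl3 the values were 1124.8 and 42.9 for the upstream form and 692.6 and 731.3 for the downstream form. In both genes the form that was rare in the second group was higher in the first, by 5.41 and 4.71 on the log2 scale, beside -0.41 and -0.08 for the other form. The exception was cirbpb, where both forms were lower in the first group (179.8 against 250.7 for the upstream and 127.1 against 251.1 for the downstream form). In the uncalled events the median log2 changes were 0.26 for the upstream and 0.22 for the downstream form. In 4 called events, in pon2, hacl1, ubxn8 and nt5c2b, a form had 0 reads in the second group, and its change was taken against a floor of 3 counts over the group. Direction and size here are not independent of the calls.

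**Figure D4:**
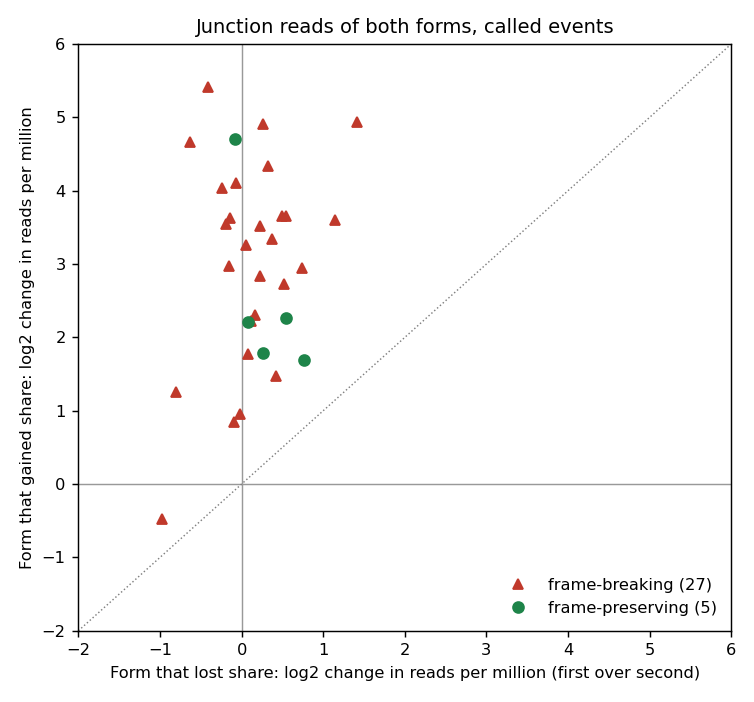
Log2 change (first over second group) in RPM of junction reads for the form that lost share (x axis) and the form that gained share (y axis) in the 32 called events; triangles are frame-breaking, circles frame-preserving. Solid lines mark 0 and the dotted line equal change; 31 of the 32 points lie above 0 on the y axis, up to 5.41, and the x axis values lie between -0.98 and 1.41.

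Several events shared a site pair and differed in the upstream exon, and they were not always called alike. The inclusion count takes reads over 2 boundaries, one of which lies inside the long exon, so events with other upstream exons share part of it, and a retained intron adds to it. In nt5c2b, a cytosolic nucleotidase, the pair lay 146 nt apart (chromosome 1, minus strand, 31097953 and 31097807). From the exon at 31101343 to 31101434 the downstream site had 8, 6, 13 and 8 reads in the first group and 0 in each second-group library (inclusion 93.3 ± 1.95% and 100%, edgeR adjusted p = 0.00318). From the exon at 31098472 to 31098529 inclusion was instead higher in the first group, 70.7 ± 3.6% against 55.85 ± 1.7% (adjusted p = 0.0284). With limma (pseudocount 0.5) this event was not called higher. In rpl22l1, the second event starts from the exon at 26334707 to 26334800, and its downstream site had 0, 5, 8 and 0 reads against 1, 0, 0 and 0. Its inclusion counts were 4804, 4955, 4804 and 6177 against 162, 119, 109 and 154, and its ratio did not differ detectably (99.9 against 99.7%, adjusted p = 0.855). The called event had 9588, 9628, 9346 and 11857 inclusion reads in the first group. How much of the second event's count came from the shared boundary was not tested, so its ratio cannot be read as site choice from its own upstream exon. In rsrc2, which has 3 events at its pair of sites, the other 2 were not called (adjusted p = 0.715 and 0.545). From the exon at 66610494 (edgeR adjusted p = 0.545) inclusion ran the other way, 69.42% in the first and 78.95% in the second group, without overlap. Its inclusion reads were 294, 312, 230 and 270 against 45, 75, 69 and 77, beside 173, 163, 116 and 153 against 44, 43, 53 and 54 in the called event. How much of the called event's count came from the shared boundary was not tested. The other events at the called pairs of ces2 and lace1a were not called either (edgeR adjusted p = 0.707 and 0.712), with at most 9 inclusion reads in any second-group library.

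Retained introns overlapped 1 called event. In C2H6orf52 the sites were 62 nt apart (chromosome 2, minus strand, 24659120 and 24659058) and inclusion was 61.5, 61.2, 59.7 and 63.3% against 96.1, 93.3, 95.9 and 93.7%, lower in all 4 first-group values by -3.48 ± 0.29 (edgeR adjusted p = 4.2e-06). The authors' deposited table of retained introns holds the same introns, with retention of 48.9% in the first and 98.8% in the second group for the intron ending at the upstream site (FDR 0). For the downstream site it gave 58.3 and 96.5% (FDR 0). The part of retention in the inclusion counts was not tested. The authors' deposited table of retained introns also held introns of 5 uncalled events at the upstream site and of 1 more at the downstream site only. In the authors' deposited table, retention at the upstream site was 30.3 and 73.6% in prpf39, a U1 particle factor (FDR 0). It was 26.2 and 75.6% in si:dkey-102m7.3 (FDR 1.86e-08), and both were lower in the first group. In the same authors' deposited table it was 6 and 5.7% in gas5 (FDR 0.988), 27.6 and 30% in max (FDR 0.576) and 66.7 and 100% in park7 (FDR 0.46). At the downstream site the authors' deposited table gave 16.8 and 27.5% in prpf39 (FDR 1.03e-10) and 5.8 and 15.7% in si:dkey-102m7.3 (FDR 2.38e-08). For max it gave 28.3 and 34.8% (FDR 0.028), for park7 0.7 and 0.9%, and for hmgb3a 1.4 and 1.4% (FDR 1).

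In tpt1 and rpl18, the deepest events called by neither test, the differences were small. Other deep events without an edgeR call differed more, such as that in tial1 (mean 810.9 reads, 9.75 points). After rpl3 the most reads were in tpt1 (mean 35134.1 reads, 22 nt, 0.2 to 0.3% against 0.3 to 0.4%, adjusted p = 0.594) and rpl18 (98.2 to 98.4% against 98.4 to 98.5%, adjusted p = 0.624). In rpl10a, a ribosomal protein gene, sites 469 nt apart had inclusion of 99.9 to 100% in both groups (edgeR adjusted p = 0.978). In gas5, the snoRNA host transcript, chosen after its values were seen, the pair 15 nt apart had 42.8, 42.8, 34.8 and 44.1% against 47.3, 41, 48.4 and 40.7%, overlapping values (adjusted p = 0.769). Its gene count was 125 ± 14.5 CPM in mutants and 12.4 ± 1.49 in wild types (10.1-fold, edgeR adjusted p = 8.14e-07), and both forms were higher in the first group, by 3.80 and 4.01 on the log2 scale. The 3 events each of fryb and ppp6r3 were not called. At the distance threshold, the 5 events at 13 nt held 2 edgeR calls and the 24 tandem events at 12 nt held none, with 2 in the authors' deposited table. A distance of 13 nt is frame-breaking and one of 12 nt frame-preserving, so frame and distance cannot be told apart here. At the depth threshold, the 3 events just above 10 reads and the 3 just below had no call.

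Gene counts were compared between the labelled genotypes. The rule for distant events did not use them, but junction reads are part of the gene counts, and a called event with more reads of 1 form adds to its gene's count. The share of called genes among hosts of called events is therefore a description that is not independent of the calls. Of the 31 genes with a called event, 16 were higher and 2 lower in mutants and 13 did not pass (edgeR, adjusted p under 0.05). That is 58.1% called, against 14.2% of the 23680 genes tested (9.1% higher and 5.11% lower). The 461 other genes with a distant event had 71 higher and 34 lower (22.8%). The median log2 fold change was 0.42 in the 31 genes and -0.01 both in the other 461 and over all genes. The count of lower genes over all 492 was 36, and it was 22, 18 or 19 without wild-type replicate 1, 3 or 4 and 15 or 21 without mutant replicate 1 or 3. In whole larvae a lower count can be fewer cells or less RNA per cell, and these cannot be told apart. ccnl1a was at 260.7, 295.5, 242.6 and 275.5 CPM in mutants and 86.6, 80.3, 87.5 and 91.9 in wild types, every mutant above every wild type (3.1-fold, edgeR adjusted p = 5.56e-06). prkag3b was 2.97-fold higher (21.8 ± 4.41 against 7.33 ± 0.87 CPM, SD, n = 4, adjusted p = 0.00029), and C2H6orf52 2.1-fold and fam133b 2.08-fold. rbm39a (1.92-fold), rpl22l1 (1.87-fold), sf1 (1.79-fold) and rpl3 (1.51-fold) were also higher. Ribosomal protein genes as a list ran the other way, with 36 of 89 lower, 3 higher and a median log2 fold change of -0.46. pon2 was lower in mutants, at 11.1 ± 0.711 against 18.3 ± 2.72 CPM (0.604-fold, adjusted p = 0.004). The counts of ces2 (1.02-fold, adjusted p = 0.955) and eif4a1a (0.959-fold, adjusted p = 0.64) did not pass although their site use differed.

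**Figure D5:**
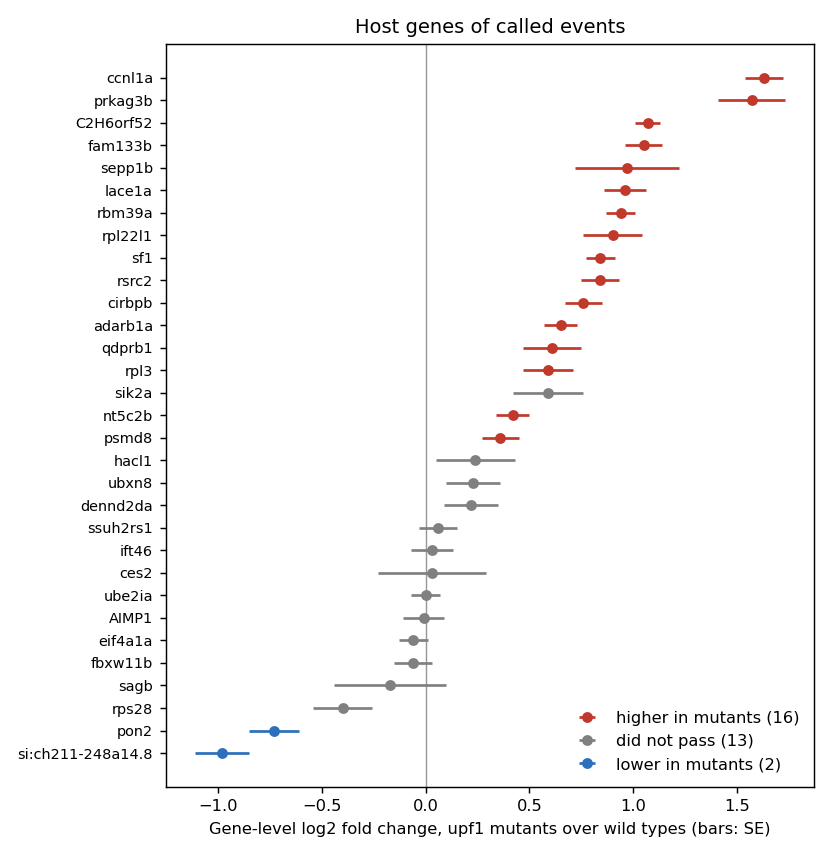
Gene-level log2 fold change (upf1 mutants over wild types, edgeR) of the 31 genes that hold a called event, with bars for the SE; red genes are higher in mutants (16), blue lower (2) and grey did not pass (13). The values run from si:ch211-248a14.8 (-0.98) to ccnl1a (1.63).

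Lists of genes for decay and for splicing were also read at the gene level. Over all 23680 genes tested, 9.1% were higher and 5.11% lower in mutants. Among 27 genes of nonsense-mediated decay and the exon junction complex, 9 were higher in mutants and 0 lower (edgeR; 1 lower at an unadjusted p under 0.05, and 1 lower by DESeq2), with a median log2 fold change of 0.20. The kinase gene smg1 was at 508 ± 32.3 against 184 ± 11.3 CPM (2.76-fold, edgeR adjusted p = 9.87e-06). The endonuclease gene SMG6 was 2.01-fold higher (adjusted p = 7.96e-05). The mutated gene upf1 was 2.21-fold higher, at 285 ± 7.51 against 129 ± 4.35 CPM (adjusted p = 1.06e-05). It holds no distant event, and its count does not test the nonsense change. Among 42 genes on the list of 3′ splice site factors and other splicing regulators, edgeR gave 19 higher and 0 lower, with a median of 0.18. Unadjusted, edgeR gave 1 lower. DESeq2 gave 0 lower adjusted and 2 lower unadjusted. The polypyrimidine tract-binding genes ptbp2b (3.27-fold, adjusted p = 1.57e-06) and ptbp1a (2.88-fold, adjusted p = 2.34e-05) and the U2AF-related zrsr2 (2.82-fold, adjusted p = 6.25e-06) were higher. SF3B1, a U2 particle subunit, was 1.55-fold higher (adjusted p = 0.0016). Of the U2AF genes, u2af2a was 1.25-fold higher (adjusted p = 0.0197). Neither its paralogue u2af2b (0.999-fold, adjusted p = 0.993) nor u2af1 (0.993-fold, adjusted p = 0.965) passed. Of 62 genes on the list of SR, hnRNP and other RNA-binding proteins 40 were higher (median 0.53). Of 84 translation factor genes 12 were higher and 17 lower (median -0.05). Their part in the choice of distant sites was not tested.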

How the data were processed

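Polyadenylated RNA of 8 libraries was sequenced, and the submitters' processing notes name STAR 2.5.2b, TopHat2 2.0.13, SAMtools 1.3.1, featureCounts and the build GRCz10, without roles. The splicing tables have the column layout of rMATS; no source used here gives its version, settings, annotation or use of strand. The authors deposited whole-number counts per gene, and, in the splicing tables, inclusion and skipping junction counts, inclusion levels, an inclusion level difference (a score between -1 and 1), a p-value and an FDR per event. Inclusion levels recomputed from the deposited counts and effective lengths (74 to 148 nt for inclusion, 74 nt for skipping) differed by at most 0.0005.

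For junction counts edgeR 4.0.16 (R 4.3.3) fitted a quasi-likelihood model with library terms and inclusion by group over the 1155 events with a mean of at least 10 reads. Gene counts were tested with edgeR after TMM scaling and filterByExpr (minimum count 10, total 15). DESeq2 1.42.0 and limma 3.58.1 were alternatives. Both tests were tested on simulated data. Host genes were matched by the gene ID; 526 event symbols came from the splicing table and 3 from a table of gene names. Events were named by a rule: in each direction the 10 with the largest difference among those passing both tests, with no overlap and a mean of at least 20 reads, then events on gene lists, the deepest, those at thresholds and genes with most events; others are said to be chosen after their values were seen. The events, lists and rules were chosen with earlier results of these data known. Splice site sequences were not analysed here. Counting error sets the floor for a form with 0 reads.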

Additional observations from a re-analysis of the deposited data

Results flagged for a closer look

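Of 62 groups of 4 inclusion levels of the named events, 7 held 1 value whose gap to the nearest other, as a share of the group's range, was above Dixon's 95% critical value. Chance flags about 1 in 20 such groups where no values are tied. In rsrc2, 1 second-group value stood at 91.5%, against 72.9 to 75.9% in the other 3, for the event from the exon at 66610494, and 1 at 89.1% for the event from the exon at 66613614. In ppp6r3, 1 second-group value of the event A3SS_602 was 78.5%. In fryb, 1 first-group value was 0.9% in A3SS_1683 and 1 was 0.4% in A3SS_1684. In tpt1 1 second-group value was 0.4%, and in rpl10a 1 was 100%. Except in the rsrc2 event from the exon at 66610494 and in ppp6r3, the other 3 values of the flagged group were equal. Such a group is flagged however small the gap, so the number flagged cannot be set against 1 in 20. None of these 7 events was called by edgeR.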

How the results depend on the processing

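The edgeR counts of 19 higher and 13 lower distant events were 18 and 15 with limma (pseudocount 0.5), 23 and 15 with limma (pseudocount 2), and 23 and 18 with all 5 splicing classes fitted together. With a distance over 24 nt, edgeR called 12 higher events, and the authors' deposited table held 31 higher in place of 47. At every distance, with a difference of at least 0.1 required, that table held 21 higher and 15 lower in place of 47 and 40. Leaving out 1 library at a time gave 13 to 20 higher and 12 to 15 lower events, 20 to 29 called frame-breaking events in place of 27, and 23 to 32 events whose rarer site gained in place of 29. For host genes it gave 59 to 87 higher and 15 to 38 lower, and for genes holding a called event 14 to 16 higher and 2 lower. For decay genes it gave 9 to 10 higher and 0 lower. For the list of 3′ splice site factors and other splicing regulators it gave 16 to 18 higher and 0 to 1 lower. DESeq2 gave 1 lower decay gene. Of 294 alternatives for the 21 named events called by edgeR, 13 lost the call and 0 changed sign. In 5 named events without a call the sign changed on leaving out 1 value, 10 times in all. The log2 ratio change ranged from -0.62 to 0.37 in rpl10a, -0.42 to 0.11 in fryb A3SS_1682, -0.19 to 0.05 in ppp6r3 A3SS_602, -0.20 to 0.09 in ppp6r3 A3SS_603 and -1.50 to 2.86 in rsrc2 A3SS_430.

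No paired analysis was possible for the splicing events because their values carry no replicate numbers. For gene counts, libraries with the same number did not deviate together (correlations 0.023, 0.034, -0.067 and -0.051). A fit with the replicate block gave 56 higher and 17 lower host genes in place of 87 and 36. From the shallowest to the deepest of 4 depth classes, edgeR called 3 of 133, 2 of 132, 8 of 132 and 19 of 132 events.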
